A study of Mus musculus with 24 samples.

Results

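The 8 genes T (Brachyury), Tbx6, Msgn1, Mixl1, Eomes, Gsc, Mesp1 and Mesp2 encode transcription factors of the primitive streak and of the paraxial mesoderm that forms from it. They were taken by symbol from a table of RNA-seq counts for 35591 genes, and all 8 were in it. The 24 libraries came from 6 male mouse embryonic stem cell lines, 3 wild-type (Smchd1[fl/+]) and 3 heterozygous (Smchd1[del/+]), each taken through differentiation toward neuromesodermal progenitors (NMPs). All 6 lines came from Castaneus Smchd1+/+ mothers and C57BL/6 fathers carrying Smchd1 del/fl and MMTV-Cre T/+, a Cre transgene driven by the mouse mammary tumour virus promoter. Every line therefore had a wild-type allele from the mother, and from the father a floxed allele in wild-type and a deleted allele in heterozygous lines, so the set tests loss of one zygotic copy with maternal SMCHD1 present. SMCHD1 is a chromatin protein with roles in X inactivation, imprinting and Hox gene silencing. Each line was sampled at day 0 in DMEM with LIF, at day 2 in N2B27 with FGF, at day 2.5 after Wnt activation with the GSK3 inhibitor CHIR99021 begun at day 2, and at day 3, the NMP stage. Each of the 8 groups thus held 3 libraries, 1 per line. The 4 libraries of a line are repeated samples of that line, and lines of the same number in the 2 genotypes are different lines.

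The streak is the site where epiblast cells move inward and become mesoderm and definitive endoderm in response to Wnt, Nodal and FGF signals. T, Eomes and Mixl1 are among the early streak factors. T maintains posterior streak and tailbud cells, Eomes acts downstream of Nodal in endoderm and anterior mesoderm, and Mixl1 is a homeobox factor of the same stage. Gsc is a homeobox factor of the anterior streak and organizer. Tbx6 and Msgn1 act afterwards in presomitic mesoderm, where both promote a mesodermal over a neural fate, while Mesp1 marks early cardiogenic mesoderm and Mesp2 sets the segment border in the anterior presomitic mesoderm.

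The genes lie at separate positions of GRCm38 except Mesp1 and Mesp2, which are neighbours on chromosome 7 with 16.9 kb between them. T (ENSMUSG00000062327) spans chr17:8434423-8442496 on the plus strand in 8 exons, and Tbx6 (ENSMUSG00000030699) spans chr7:126781483-126785560 on the plus strand. Msgn1 (ENSMUSG00000047002) is a single exon of 613 bases at chr12:11208360-11208972 on the minus strand. Mixl1 (ENSMUSG00000026497) lies at chr1:180693043-180697034 on the minus strand, and Eomes (ENSMUSG00000032446) at chr9:118478212-118486132 on the plus strand. Gsc (ENSMUSG00000021095) lies at chr12:104471209-104473330 on the minus strand, Mesp1 (ENSMUSG00000030544) at chr7:79792241-79793788 on the minus strand and Mesp2 (ENSMUSG00000030543) at chr7:79810727-79813439 on the plus strand. Every 75-base word of their exons was unique in the annotated transcripts of other genes, so none shares a full-length read with a paralog. An exon of Eomes overlaps Gm33460 on the other strand, and reads of that overlap cannot be assigned with certainty because the libraries came from stranded or non-stranded kits.

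The sequence just upstream of T, Msgn1 and Tbx6 is shown because these genes differed in the day on which they rose. The 250 bases before each start are as RefSeq gives them on GRCm38.p6, read in the direction of the gene: T at chr17:8434173-8434422, plus strand, Msgn1 at chr12:11208949-11209198, minus strand, and Tbx6 at chr7:126781233-126781482, plus strand. Capitals mark matches, on either strand, to the Tcf/Lef motif CTTTGA, read by the factors through which Wnt signals act on genes, or to the T-box core motif AGGTGT.
T: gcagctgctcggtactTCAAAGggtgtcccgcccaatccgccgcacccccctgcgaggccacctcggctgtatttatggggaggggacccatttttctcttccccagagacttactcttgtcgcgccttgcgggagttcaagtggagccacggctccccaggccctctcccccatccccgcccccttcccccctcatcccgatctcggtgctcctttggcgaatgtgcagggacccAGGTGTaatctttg
Msgn1: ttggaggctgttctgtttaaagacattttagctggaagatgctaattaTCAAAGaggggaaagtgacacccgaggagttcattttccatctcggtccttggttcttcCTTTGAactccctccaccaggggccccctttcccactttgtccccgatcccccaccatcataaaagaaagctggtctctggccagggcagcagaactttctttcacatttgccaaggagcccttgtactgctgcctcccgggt
Tbx6: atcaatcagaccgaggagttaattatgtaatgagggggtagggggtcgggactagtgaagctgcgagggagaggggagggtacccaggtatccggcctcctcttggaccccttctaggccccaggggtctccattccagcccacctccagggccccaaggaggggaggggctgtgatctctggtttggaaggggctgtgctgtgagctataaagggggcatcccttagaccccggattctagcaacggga
The T window held 1 Tcf/Lef match, 234 bases before the start, and 1 T-box core motif, 14 bases before it. Msgn1 held 2 Tcf/Lef matches, 202 and 143 bases before the start, and no T-box core motif. Tbx6 held neither motif. Of the 32851 promoters of the RefSeq table, 13.8% held the Tcf/Lef motif and 11.8% the T-box core motif in a window of this length. Sequences were found for 7 of the 8 genes, all but Mixl1. Among the other 4, Mesp1 held 2 Tcf/Lef matches and 1 T-box core motif, though most of its window lies within the annotated gene model, and Eomes, Gsc and Mesp2 held neither. The Foxh1 motif TGTNNATT, present in 10.9% of promoters, was found in none of the 7. Positions are counted from the RefSeq start. For Msgn1 and Gsc this start lies inside the annotated gene model whose coordinates are given above, so the last bases of these windows belong to the gene. These matches describe letters and were not tied to any expression value.

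Library totals ran from 7102655 to 20818018 counts. The smallest library, wild-type line 2 at day 2.5, gives the least precise values. Levels are given in CPM, a gene's counts relative to its library's total after TMM scaling, and 3 counts, the limit that a count of 0 allows, equal 0.137 CPM in the largest and 0.412 CPM in the smallest library for counting error alone. Smchd1 itself was lower in all 3 heterozygous libraries than in all 3 wild-type libraries on each of the 4 days, at 66.8%, 60.1%, 66.1% and 54.7% of the wild-type mean on days 0, 2, 2.5 and 3. Marker levels were taken as summed CPM over fixed lists. The 8 naive pluripotency genes stood at 967–1104 at day 0 and 77.7–109 at day 2. The 8 neuromesodermal genes were at 216–286 at day 0 and 74.1–110 at day 2, then at 582–942 by day 2.5 and 384–641 by day 3. At day 0 this sum was mostly Sox2, also a pluripotency gene (mean 239 CPM in wild-type and 235 CPM in heterozygous lines). Sox2 fell to 67.9 and 66.5 CPM at day 2. Nkx1-2, Cdx1, Cdx2, Cdx4, Sp5 and Evx1 each had means of 2.46 CPM or less on both days. The sum of 6 epiblast genes was 2591–2783 at day 0, 2067–2376 at day 2 and 357–699 at day 3. Its members did not move together from day 0 to day 2. In wild-type lines Pou5f1 (mean 1320 to 800 CPM) and Nanog (353 to 59.2 CPM) fell. Dnmt3b (941 to 1143 CPM), Pou3f1 (39.0 to 55.3 CPM) and Otx2 (60.7 to 65.8 CPM) were higher at day 2, and the heterozygous means moved in the same directions. The 6 neural genes stood at 22.5–33.4 at day 2 and 5.92–10.1 at day 3. Lists for other cell types were also summed at day 3. The 9 extraembryonic endoderm genes stood at 2026–5463. The 11 lateral and cardiac mesoderm genes stood at 105–235 and the 8 of definitive endoderm and node at 23.2–65.8. Pdgfra made up most of the mesoderm sum (mean 165 CPM in wild-type and 98.8 CPM in heterozygous lines). Sox17 (34.6 and 19.8 CPM) and Foxa2 (16.7 and 10.1 CPM) made up most of the other. Hand2, Foxf1, Nkx2-5, Hhex, Cer1, Shh and Noto each had means of 0.337 CPM or less. The mesoderm and definitive endoderm sums thus do not show that these cell types were present. In such bulk samples, fewer cells of a type and less RNA per cell cannot be told apart.

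**Figure D1:**
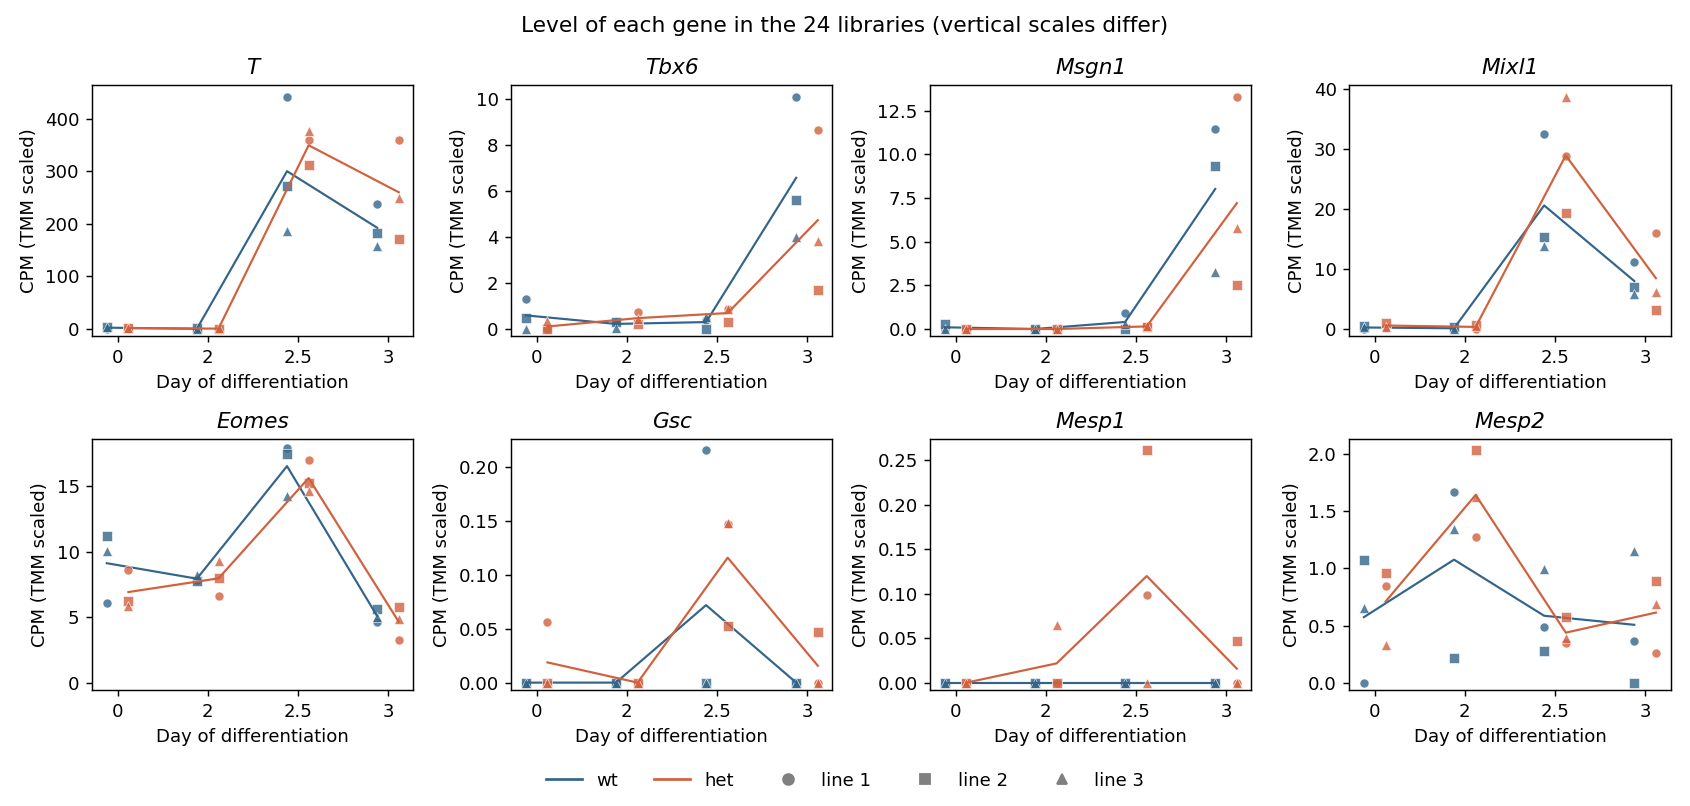
Each panel plots 1 gene: the day of differentiation on the horizontal axis and its level in CPM (TMM scaled) on the vertical axis, whose scale differs between panels. Points are single libraries (blue wild-type, orange heterozygous, shape by line) and lines join group means. T and Mixl1 are highest at day 2.5, Eomes rises and then falls, Tbx6 and Msgn1 appear at day 3, and Gsc and Mesp1 stay at 0 to 5 counts.

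Before Wnt activation only Eomes was present at more than a trace in every library. At day 0 its level was 6.11, 11.2 and 10.04 CPM in wild-type lines 1, 2 and 3 and 8.61, 6.25 and 5.86 CPM in the heterozygous lines. At day 2 it was 7.81, 7.73 and 8.25 CPM in wild-type and 6.61, 7.97 and 9.28 CPM in heterozygous lines. The 4 groups overlapped, and all 12 libraries held at least 89 Eomes counts.

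T was low but detected at day 0 in all 6 lines. Its level was 0.374, 4.46 and 2.89 CPM in wild-type and 2.31, 1.08 and 1.58 CPM in heterozygous lines, from 6 to 75 counts. At day 2 it was 0.295, 1.07 and 0 CPM in wild-type and 0.182, 0.599 and 1.43 CPM in heterozygous lines. The level was lower at day 2 than at day 0 in each of the 6 lines, but the days overlapped within each genotype. Tbx6 and Mixl1 were at 21 counts or fewer in each of these 12 libraries. Msgn1 was at 0 in 11 of the 12, the exception being wild-type line 2 at day 0 with 5 counts.

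Between day 0 and day 2, the exit from LIF, none of the 3 genes with enough counts to test (T, Eomes, Mesp2) passed an adjusted p of 0.05 in edgeR's quasi-likelihood test in either genotype, where 44.4% of all genes tested did in wild-type cells (22.4% higher, 21.9% lower) and 56.1% in heterozygous cells (27.9% higher, 28.2% lower). T changed by a log2 fold of -2.48 ± 1.08 (SE, n = 3 against 3) in wild-type cells, with an edgeR adjusted p of 0.0723. It was the 1 gene of the 3 with an unadjusted p under 0.05, and DESeq2's Wald test called it (adjusted p = 0.0309). It was called under 5 of 14 alternatives, among them no filter (edgeR adjusted p = 0.00876), 1 fit of all 24 libraries (edgeR adjusted p = 0.0412), and the fits without wild-type line 1 at day 0 (-3.00, edgeR adjusted p = 0.0185) or line 2 at day 2 (-4.04, edgeR adjusted p = 0.0262). In heterozygous cells the T change was -1.16 ± 0.72 (edgeR adjusted p = 0.179), with no unadjusted p under 0.05 among the 3 genes and 0 called by DESeq2. Without heterozygous line 3 at day 2 it was -2.05 and called (edgeR adjusted p = 0.0351). Eomes changed by -0.19 ± 0.28 in wild-type and 0.22 ± 0.24 in heterozygous cells on the log2 scale, neither past the test.

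Wnt activation was followed by the largest differences among these genes. At day 2.5 T stood at 442, 272 and 186 CPM in wild-type lines 1, 2 and 3 and at 359, 312 and 378 CPM in heterozygous lines. Every one of these 6 libraries was above every day 2 library. T rose by 9.40 ± 0.84 on the log2 scale in wild-type cells (676-fold, edgeR adjusted p = 0.00171) and by 8.90 ± 0.26 in heterozygous cells (478-fold, edgeR adjusted p = 3.57e-10). With counts of 0 to 22 at day 2, these folds carry the counting error of the day 2 libraries. Without wild-type line 2 at day 2 the wild-type rise was 10.91, and the heterozygous rise was 9.77 without heterozygous line 3 and 8.43 without line 1 at day 2.

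Mixl1 followed at a lower level. It was at 0, 0.320 and 0.050 CPM at day 2 in wild-type lines and 0, 0.599 and 0.454 CPM in heterozygous lines. At day 2.5 it reached 32.5, 15.4 and 13.9 CPM in wild-type and 28.7, 19.2 and 38.7 CPM in heterozygous lines. The days did not overlap in either genotype. The log2 rise was 7.37 ± 0.65 in wild-type cells (edgeR adjusted p = 1.07e-05) and 6.33 ± 0.48 in heterozygous cells (edgeR adjusted p = 7.50e-07). Without wild-type line 2 at day 2 the wild-type rise was 9.33. The heterozygous rise was 5.75 without line 1 and 6.99 without line 2 at day 2.

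Eomes rose about as much in both genotypes but far less than T or Mixl1. Its level at day 2.5 was 17.9, 17.4 and 14.2 CPM in wild-type and 16.9, 15.2 and 14.6 CPM in heterozygous lines, above all 6 day 2 libraries. The log2 rise was 1.07 ± 0.23 in wild-type cells (edgeR adjusted p = 0.00263) and 0.97 ± 0.19 in heterozygous cells (edgeR adjusted p = 0.000853). In all, 3 of 4 genes tested rose in wild-type cells, against 14.8% of all genes tested that rose and 29.4% called in either direction. In heterozygous cells 3 of 5 rose and 1 fell, against 21.8% of all genes that rose, 23.1% that fell and 44.9% called in either direction. Genes low at day 2, as Mixl1 was, entered the test only through high counts at day 2.5, and genes low on both days were left out. These shares were thus set in part by the filter and are not evidence about the 8 genes as a set.

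The gene that fell was Mesp2, at very low counts. In heterozygous lines it was at 1.27, 2.04 and 1.62 CPM (21 to 34 counts) at day 2 and at 0.344, 0.575 and 0.395 CPM (7 to 11 counts) at day 2.5, without overlap. The log2 difference was -1.90 ± 0.66 (edgeR adjusted p = 0.0272). The call held under 6 of 14 alternatives. It did not hold with no filter (edgeR adjusted p = 0.0556), in 1 fit of all 24 libraries (edgeR adjusted p = 0.137) or with limma voom (adjusted p = 0.0712). Nor did it hold with the line as a replicate block (-1.90 ± 0.78, edgeR adjusted p = 0.0588), without heterozygous line 2 at day 2 (-1.72, edgeR adjusted p = 0.0722) or without line 1, 2 or 3 at day 2.5 (edgeR adjusted p = 0.117, 0.0735 and 0.114). In wild-type lines it was at 1.67, 0.213 and 1.35 CPM at day 2 and at 0.485, 0.275 and 0.998 CPM at day 2.5, where the days overlapped and the log2 difference of -0.80 ± 0.83 did not pass (edgeR adjusted p = 0.507).

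Tbx6 and Msgn1, the presomitic factors, stayed near their floor at day 2.5. Tbx6 was at 0.377, 0 and 0.528 CPM in wild-type and 0.884, 0.314 and 0.888 CPM in heterozygous lines. Its log2 difference from day 2 in heterozygous cells was 0.55 ± 0.81 (edgeR adjusted p = 0.615), and in wild-type cells it had too few counts to test. Msgn1, with no count in any of the 6 libraries at day 2, had 17, 0 and 5 counts in wild-type lines and 4, 2 and 3 counts in heterozygous lines at day 2.5. Pooled over lines, this was 10.1 times the day 2 limit in wild-type and 2.44 times in heterozygous cells, taking 3 counts over the group as that limit. The limit covers counting error at day 2 only, and neither the error of the day 2.5 counts nor the spread over lines.

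**Figure D2:**
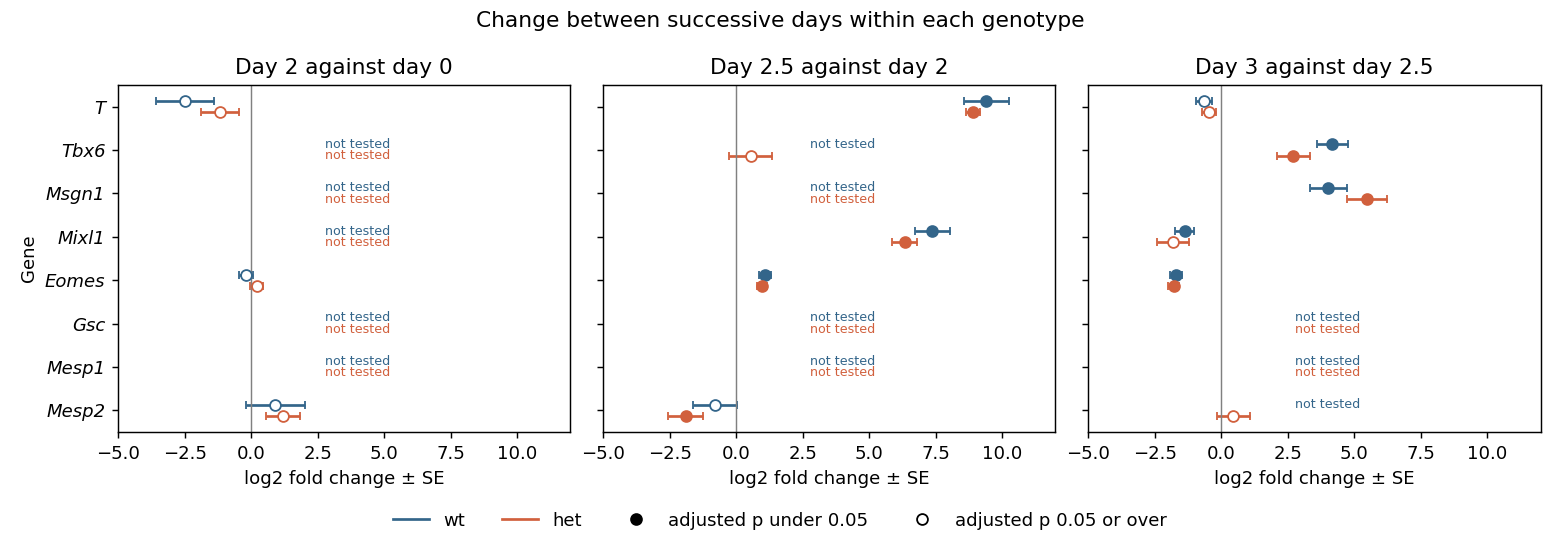
Log2 fold change between successive days for each gene, with the standard error as a bar, in wild-type (blue) and heterozygous (orange) lines. Filled points passed an edgeR adjusted p of 0.05. T, Mixl1 and Eomes rose at day 2.5 in both genotypes, and at day 3 Tbx6 and Msgn1 rose and Eomes fell in both, while Mixl1 is below 0 in both, past the test in wild-type cells and not in heterozygous cells, with an interaction of -0.42 ± 0.80 that did not pass.

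Over the last interval, from day 2.5 to day 3, the presomitic factors appeared while the streak factors went down or held. Tbx6 reached 10.1, 5.63 and 4.01 CPM in wild-type lines and 8.68, 1.69 and 3.85 CPM in heterozygous lines. All 6 libraries were above all 6 of day 2.5. The log2 rise was 4.17 ± 0.59 in wild-type cells (edgeR adjusted p = 0.00126) and 2.71 ± 0.62 in heterozygous cells (edgeR adjusted p = 0.0105).

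Msgn1 reached 11.5, 9.32 and 3.28 CPM in wild-type lines and 13.3, 2.54 and 5.77 CPM in heterozygous lines, again above every day 2.5 library. The log2 rise from day 2.5 was 4.03 ± 0.69 in wild-type cells (edgeR adjusted p = 0.00409) and 5.48 ± 0.76 in heterozygous cells (edgeR adjusted p = 0.000963). Without wild-type line 1 at day 2.5, which held 17 of the 22 Msgn1 counts of that group, the wild-type rise was 5.28. The heterozygous rise was 4.69 without heterozygous line 1 and 5.89 without line 2 at day 3. Against day 2, where all 6 libraries were at 0, the pooled level was 165 times the same limit of 3 counts in wild-type and 114 times in heterozygous cells.

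Eomes fell to the lowest level of the course. It stood at 4.63, 5.63 and 4.98 CPM in wild-type and 3.29, 5.74 and 4.88 CPM in heterozygous lines, below all libraries of day 2.5 and of day 2. The log2 change from day 2.5 was -1.71 ± 0.22 in wild-type cells (edgeR adjusted p = 0.000826) and -1.78 ± 0.20 in heterozygous cells (edgeR adjusted p = 0.000107).

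Mixl1 was at 11.1, 7.02 and 5.89 CPM in wild-type lines and 16.0, 3.20 and 6.17 CPM in heterozygous lines at day 3, below the day 2.5 value of the same line in 6 of 6 lines. In wild-type cells it fell by 1.38 on the log2 scale (SE 0.35, edgeR adjusted p = 0.0214), and the call was lost without wild-type line 2 (edgeR adjusted p = 0.0827) or line 3 (edgeR adjusted p = 0.0822) at day 3 and in 1 fit of all 24 libraries (edgeR adjusted p = 0.0896), and held under the other 11 of 14 alternatives. Without wild-type line 1 at day 2.5 the fall was -0.87, still called (edgeR adjusted p = 0.0487). In heterozygous cells the change of -1.82 ± 0.59 missed the threshold (edgeR adjusted p = 0.0650). It passed under 6 of 14 alternatives, with adjusted p from 0.00217 (limma voom) to 0.0382 (DESeq2). Among them were the fit with the line as a replicate block (-1.995 ± 0.36, edgeR adjusted p = 0.00651) and that without heterozygous line 1 at day 3 (-2.67, edgeR adjusted p = 0.0043).

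T remained high at day 3, at 238, 183 and 158 CPM in wild-type and 360, 171 and 250 CPM in heterozygous lines. The days overlapped in both genotypes, and the log2 changes of -0.65 ± 0.32 in wild-type (edgeR adjusted p = 0.205) and -0.46 ± 0.25 in heterozygous cells (edgeR adjusted p = 0.217) did not pass. Compared within lines, T was lower in all 3 wild-type lines and in heterozygous lines 2 and 3, while heterozygous line 1 stood at 359 CPM at day 2.5 and 360 CPM at day 3. The test with the line as a replicate block called T lower in both genotypes (-0.58 ± 0.11, edgeR adjusted p = 0.00057, and -0.52 ± 0.14, edgeR adjusted p = 0.01997). It was also called without heterozygous line 1 at day 3 (-0.77, edgeR adjusted p = 0.0043) and without wild-type line 3 at day 2.5 (-0.91, edgeR adjusted p = 0.0228).

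Over this interval 2 of 5 genes tested rose and 2 fell in wild-type cells, against 9.22% of all genes tested that rose, 10.4% that fell and 19.6% called. In heterozygous cells 2 of 6 rose and 1 fell, against 13.8%, 16.1% and 29.9%.

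Gsc and Mesp1 were not detected beyond a few counts. Gsc had 13 counts over the 24 libraries, at 0 in 18 of them, with 4 counts in wild-type line 1 and 3, 1 and 3 counts in heterozygous lines at day 2.5. Mesp1 had 9 counts in all, at 0 in 20 libraries, its highest value being 5 counts in heterozygous line 2 at day 2.5. Neither passed the filter on low counts in any comparison. Mesp2, which lies beside Mesp1, had 326 counts and was at 0 in 2 libraries, with levels of 0 to 1.07 CPM at day 0 and 0 to 1.153 CPM at day 3.

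Divided by exon length, the order of levels changed with the day. At day 2 Eomes was the highest of the 8 in both genotypes, at 1.91 ± 0.067 CPM per kb in wild-type and 1.91 ± 0.32 in heterozygous lines (SD, n = 3). At day 2.5 the order began with T, Mixl1 and Eomes in both genotypes, at 130 ± 56.3, 8.97 ± 4.51 and 3.97 ± 0.484 CPM per kb in wild-type lines. In heterozygous lines these levels were 151 ± 14.5, 12.6 ± 4.24 and 3.76 ± 0.288 CPM per kb. At day 3 T remained first, and Msgn1 was second at 13.1 ± 6.92 CPM per kb in wild-type and 11.8 ± 9.01 in heterozygous lines. Tbx6 (3.65 ± 1.76 and 2.63 ± 1.98 CPM per kb) and Mixl1 (3.49 ± 1.19 and 3.69 ± 2.93) came next, with a difference between them smaller than the spread over lines. Eomes followed at 1.22 ± 0.122 and 1.12 ± 0.299 CPM per kb, and Mesp2 at 0.261 ± 0.303 and 0.316 ± 0.167.

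The comparison of genotypes asks whether loss of one zygotic Smchd1 copy alters these levels. On days 0, 2, 2.5 and 3 respectively 3, 3, 3 and 6 of the 8 genes could be tested, and 0 passed an edgeR adjusted p of 0.05 on any day. The same test called 0%, 0.493%, 0% and 0.00638% of all genes on these days, with 1656, 1591, 814 and 1405 genes at an unadjusted p under 0.05, and DESeq2 called 84, 234, 3 and 116 genes. None of the 8 had an unadjusted p under 0.05, and DESeq2's Wald test and limma voom also called 0 of them. The libraries of the 2 genotypes overlapped for each gene tested on each day, whereas 17.0%, 15.8%, 11.6% and 14.0% of all genes tested had groups that did not overlap. Smchd1 itself, whose groups did not overlap on any day, passed the edgeR test at days 2 and 3 (edgeR adjusted p = 0.00253 and 0.0140). It did not pass at days 0 and 2.5 (edgeR adjusted p = 0.0630 and 0.914). The 0 calls on those days thus do not show equal levels.

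The intervals state how large a difference these lines could hide. At day 2.5 the log2 difference of T, heterozygous against wild-type, was 0.22 with a 95% interval from -0.45 to 0.89, and that of Eomes was -0.08 (-0.45 to 0.29). Mixl1 differed by 0.48 (-0.37 to 1.33). At day 3 T differed by 0.42 (-0.23 to 1.07) and Eomes by -0.14 (-0.72 to 0.45). For the presomitic factors the intervals were wider: Tbx6 differed by -0.51 (-1.79 to 0.78) and Msgn1 by -0.18 (-1.74 to 1.37). Mixl1 at day 3 differed by 0.05 (-1.22 to 1.33) and Mesp2 by 0.29 (-1.75 to 2.33). Differences of more than 2-fold were thus within the interval for T, Tbx6, Msgn1, Mixl1 and Mesp2 at day 3, and outside it for Eomes.

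**Figure D3:**
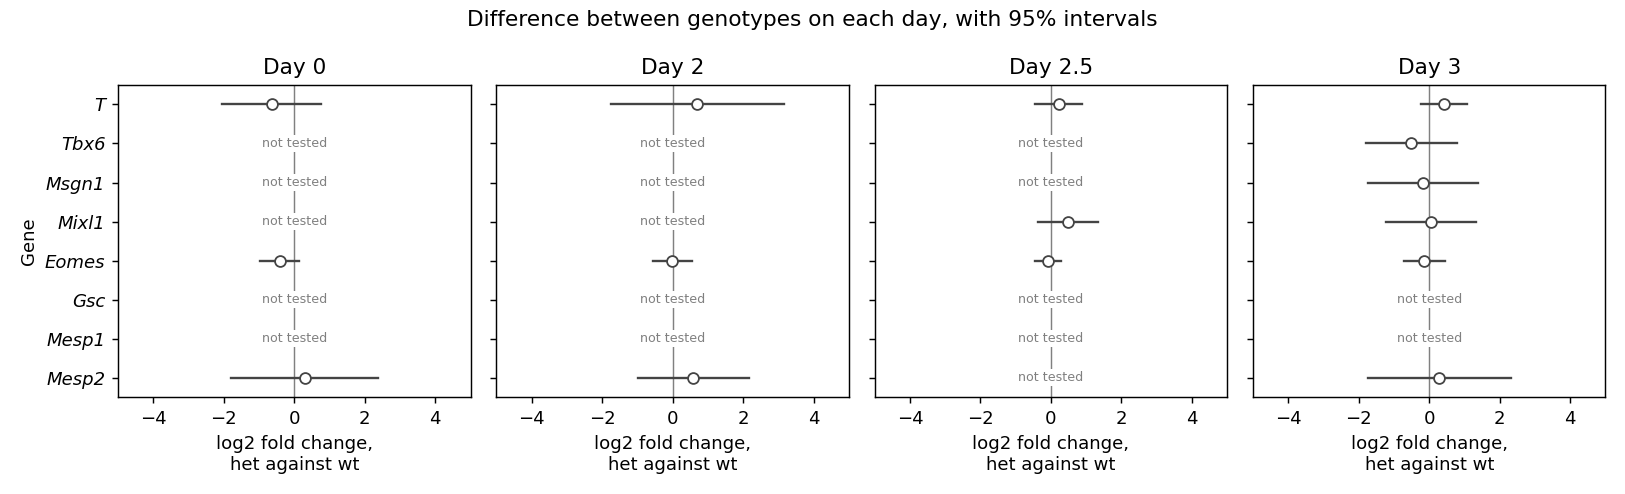
Log2 fold change of heterozygous against wild-type lines on each day, with its 95% interval as a bar. Every interval includes 0, and genes with too few counts are marked as not tested. The narrowest interval is that of Eomes at day 2.5 (-0.45 to 0.29).

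The change of each gene between days was also compared between genotypes as an interaction. None of the 3, 5 and 6 genes tested at the 3 successive intervals passed, with edgeR or with DESeq2, and none had an unadjusted p under 0.05. Over all genes edgeR called 0% at each interval, with 1045, 847 and 623 genes at an unadjusted p under 0.05. DESeq2 called 6, 0 and 0 genes. The largest interaction estimates at day 3 were 1.473 ± 1.32 for Msgn1 and -1.45 ± 0.97 for Tbx6, so the larger Msgn1 rise and smaller Tbx6 rise of heterozygous cells were not distinguishable from the wild-type rises. Over the alternatives, none of which called either gene, the estimate went from 0.21 (without wild-type line 1 at day 2.5) to 1.88 (without heterozygous line 2 at day 3) for Msgn1. For Tbx6 it went from -2.23 (without heterozygous line 1 at day 3) to -0.996 (without wild-type line 1 at day 3).

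The 6 lines varied widely in these genes. At day 3 the highest of the 6 lines exceeded the lowest by 5.98-fold for Tbx6, 5.24-fold for Msgn1, 5.01-fold for Mixl1, 2.28-fold for T and 1.74-fold for Eomes. Within each genotype, line 1 had the highest T, Tbx6, Msgn1 and Mixl1 and the lowest Eomes. Heterozygous line 2 was at 0.299 to 0.388 of the 6-line mean for Tbx6, Msgn1 and Mixl1, and at 0.756 for T and 1.18 for Eomes. At day 2.5 the spread was 2.79-fold for Mixl1, 2.38-fold for T and 1.26-fold for Eomes. Wild-type line 3 was the lowest of the 6 for all 3 genes on that day. Leaving out heterozygous line 1 at day 3 moved the Tbx6 rise of heterozygous cells to 1.94 ± 0.52, still called (edgeR adjusted p = 0.015).

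**Figure D4:**
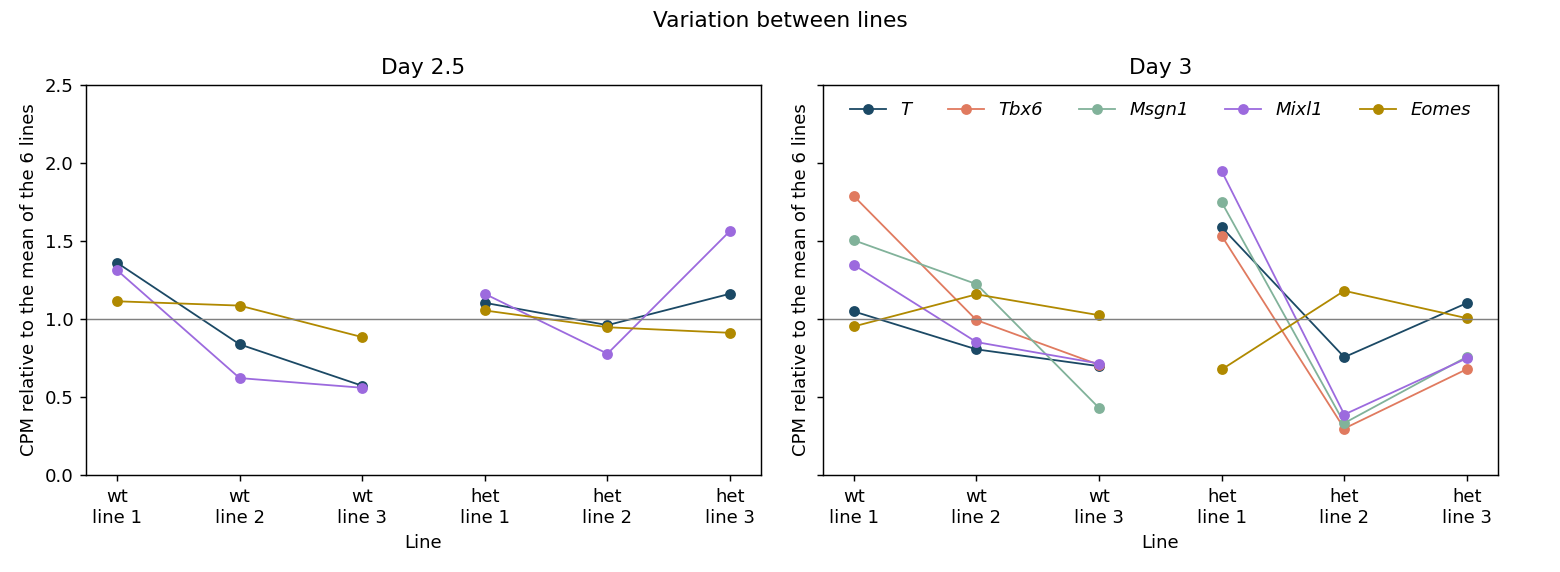
CPM of each line divided by the mean of the 6 lines, at day 2.5 (T, Mixl1, Eomes) and day 3 (T, Tbx6, Msgn1, Mixl1, Eomes). Each point is 1 library and the grey line marks the mean. At day 3 line 1 stands highest within its own genotype for T, Tbx6, Msgn1 and Mixl1, and heterozygous line 2 is the lowest of all 6 for Tbx6, Msgn1 and Mixl1.

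Several marker lists moved with these line differences. The summed level of 9 extraembryonic endoderm genes at day 2.5 was 2922, 4693 and 7725 CPM in wild-type lines 1, 2 and 3, the reverse of the order of T, and 3477, 4552 and 2999 CPM in heterozygous lines, also the reverse of the order of T. At day 3 it was 2695, 5295 and 5463 CPM in wild-type lines and 2026, 3330 and 3384 CPM in heterozygous lines. Line 1 was thus lowest for endoderm markers and highest for T, Tbx6, Msgn1 and Mixl1 in each genotype at day 3. Gata4, Gata6, Sox7, Dab2, Col4a1 and Lama1 exceeded 3 counts in at least 1 library of every group, and Afp, Ttr or Apoa1 did not in several groups. Over days 0 to 3 the list held 0, 3, 0 and 0 genes called lower in heterozygous cells of the 6 tested, where 0%, 0.493%, 0% and 0.00638% of all genes were called in either direction. At day 2, 1 of 3 genes tested of definitive endoderm and node was also called lower (Sox17, edgeR adjusted p = 0.0284). So was 1 of 6 neuromesodermal genes tested (Cyp26a1, edgeR adjusted p = 0.00683). The 11 lateral and cardiac mesoderm genes stood at 111, 176 and 274 CPM in wild-type lines 1, 2 and 3 and at 126, 159 and 117 CPM in heterozygous lines at day 2.5. At day 3 they stood at 130, 235 and 209 CPM in wild-type and 105, 119 and 138 CPM in heterozygous lines. The 8 genes of definitive endoderm and node were at 20.2, 38.3 and 56.5 CPM in wild-type and 27.1, 36.0 and 22.0 CPM in heterozygous lines at day 2.5, and at 31.0, 65.8 and 61.1 CPM and 23.2, 29.7 and 43.1 CPM at day 3. Both lists thus had the same line order as the extraembryonic endoderm genes within each genotype at day 2.5, and both were lowest in line 1 of each genotype at day 3. At day 2.5 Pdgfra made up most of the mesoderm sum (mean 148 CPM in wild-type and 97.4 CPM in heterozygous lines). Sox17 (24.8 and 18.1 CPM) and Foxa2 (11.7 and 8.40 CPM) made up most of the other, so the shared order rests mainly on these genes. The 6 epiblast genes were at 510, 357 and 469 CPM in wild-type and 507, 699 and 534 CPM in heterozygous lines at day 3, highest in heterozygous line 2. The 8 neuromesodermal genes followed the line order of T within each genotype, at 942, 751 and 582 CPM in wild-type and 669, 636 and 821 CPM in heterozygous lines at day 2.5, and at 641, 489 and 441 CPM and 621, 384 and 448 CPM at day 3. The part of these lists in the line differences of T, Tbx6, Msgn1 and Mixl1 was not tested.

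The 14 gastrulation signals, the ligands and antagonists around the streak, changed alongside. From day 2 to day 2.5, 6 of 14 rose and 2 fell in wild-type cells, against 14.8% and 14.6% of all genes tested, with a median log2 change of 0.83 against 0.00. In heterozygous cells 8 rose and 2 fell, against 21.8% and 23.1%, with a median of 1.21 against 0.01. Wnt3a, the Wnt ligand of the streak and tailbud, rose in both genotypes, from 0 to 0.250 CPM at day 2 to 1.94 to 6.57 CPM in wild-type and from 0 to 0.0607 to 2.51 to 4.72 CPM in heterozygous lines. As it was at 3 counts or fewer in every heterozygous library at day 2, no fold is given. Fgf4, an FGF of the epiblast, fell (-4.59 ± 0.16 in wild-type and -5.27 ± 0.17 in heterozygous cells on the log2 scale), and rose again from day 2.5 to day 3 by 2.18 ± 0.24 and 2.41 ± 0.33 without reaching its day 2 level. From day 2.5 to day 3, 4 rose and 2 fell in wild-type cells, against 9.22% and 10.4% of all genes tested, with a median log2 change of 0.25 against 0.00. In heterozygous cells 5 rose and 0 fell, against 13.8% and 16.1%, with a median of 0.44 against -0.02. Wnt3a rose again, by 2.38 ± 0.38 and 2.36 ± 0.47 on the log2 scale in wild-type and heterozygous cells, over the interval in which Tbx6 and Msgn1 appeared.

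Of 18 other presomitic and somite genes, 12 had enough counts at day 3, and 4 rose in wild-type and 6 in heterozygous cells from day 2.5, with 0 lower in either, against 9.22% of all genes tested that rose and 10.4% that fell in wild-type and 13.8% and 16.1% in heterozygous cells. Their median log2 changes were 0.92 and 0.85, against 0.00 and -0.02 over all genes. Genes low at day 2.5 entered this test only if they were high at day 3, so these values too were set in part by the filter. Rspo3, a secreted enhancer of Wnt signalling, rose by 4.93 ± 0.31 and 5.49 ± 0.77, and Dll1, a Notch ligand of presomitic mesoderm, by 2.39 ± 0.33 and 2.50 ± 0.46. Dll1 had fallen over the interval before, from a mean of 16.9 to 4.23 CPM in wild-type and from 20.9 to 3.61 CPM in heterozygous lines, so its day 3 means of 22.7 and 21.1 CPM were near those of day 2. From day 2 to 2.5, 2 of 10 genes of the list rose and 3 fell in wild-type cells, and 2 rose and 4 fell in heterozygous cells, against 14.8% and 14.6% of all genes tested in wild-type and 21.8% and 23.1% in heterozygous cells. Of the 18, 3 genes (Ripply2, Meox2 and Uncx) were at 3 counts or fewer in every library at day 3. Tcf15, a factor of somites, was at 1.03 to 4.09 CPM at day 3, below its level of 9.75 to 13.1 CPM at day 0. Of 14 other T-box genes 4 to 7 had enough counts in any comparison, and none passed the test from day 2.5 to day 3. From day 2 to 2.5, 1 rose and 1 fell of the 5 tested in wild-type cells, and 2 rose and 2 fell of the 6 tested in heterozygous cells. With so few genes these counts were near the shares over all genes just given. Tbx3, also a pluripotency factor, rose by 1.55 ± 0.36 in wild-type and 2.28 ± 0.26 in heterozygous cells, far less than T. Mga, a factor with both a T-box and a Max-binding domain, fell by 0.43 (SE 0.10) and 0.62 (SE 0.080) on the log2 scale. In heterozygous cells Tbx15 also rose, by 1.35 ± 0.49, and Tbx4 fell by 1.93 (SE 0.76). In the comparison of genotypes 0 genes of these 3 lists passed on any day, where at most 0.493% of all genes did.

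The genes whose course over the 8 group means was most like that of each factor, by Pearson correlation of log2(CPM + 0.5) among 13623 genes, differed from factor to factor. T was most like Sp5 (r = 0.995), a zinc finger gene induced by Wnt, and Mixl1 most like Rap2b (0.998). Tbx6 was most like Kif26b (0.977), and Msgn1 most like Hoxb5os (0.997), then Rspo3 (0.988) and Aplnr (0.984). Eomes was most like Mcat (0.980) and Mesp2 most like Psmb1 (0.9747). Among the factors themselves r was 0.972 for T and Mixl1 and 0.966 for Tbx6 and Msgn1, but 0.185 for T and Eomes and 0.357 for Mixl1 and Eomes. T lay between, at 0.640 with Msgn1 and 0.585 with Tbx6, and Mixl1 had r of 0.471 with Msgn1 and 0.416 with Tbx6. Eomes had r of -0.616 with Tbx6 and -0.609 with Msgn1. These describe 8 means from lines sampled repeatedly, and lines, library and depth are shared between the genes.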

How the data were processed

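RNA-seq was made from polyA RNA of 24 samples (75-base single-end reads, stranded or non-stranded kit). Per the study's methods the authors trimmed reads with Trim Galore 0.4.4, aligned them with HISAT2 2.0.5 to GRCm38.p6 and quantified genes in SeqMonk. The counts deposited by the authors are raw reads per gene for 35591 genes, and they were used as deposited. Columns of group means (8) and deposited log2 RPKM tables were not used.

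Groups came from the sample titles. Each comparison was fitted on all genes of its own groups with edgeR 4.0.16 (R 4.3.3): TMM scaling, filterByExpr by group, robust quasi-likelihood F test, Benjamini-Hochberg adjustment over all genes tested and a threshold of 0.05. Comparisons were heterozygous against wild-type on each day, successive days within each genotype, and their interaction. The fitting code was tested on simulated counts. CPM used TMM over all 24 libraries and per kb used the exon length. Totals of 7102655 to 20818018 counts per library set the precision, and floors cover counting error only. Alternatives were DESeq2 1.42.0 (size factors and Wald test), library totals, no filter, 1 fit of all libraries, limma 3.58.1 voom with the line as random effect, the line as a replicate block, and each library left out. A fit without robust dispersion was added after seeing the data.

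All 8 genes were named in every comparison, list examples were the largest called changes, and likeness took genes averaging at least 50 counts in 1 group. Members and lists were chosen with earlier results of these data known. Each line was sampled on 4 days, which pairs successive days. Deviations from group means of a line on 2 days correlated from -0.0972 to 0.426 over 18 pairs. Samples of separate lines are biological replicates. Promoter sequences came from RefSeq and positions from GENCODE vM21.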

Additional observations from a re-analysis of the deposited data

How the results depend on the processing

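Of 200 counts of called genes under alternatives, 192 were within 1.5 times of the value reported. Where the reported count was 0, as in every genotype comparison and interaction, this means only 0 again. A change from 4 to 3 also falls within it, so the lost Mesp2 call given above does not register. From day 0 to 2 in wild-type cells the count went from 0 to 1 (T) with DESeq2's Wald test, with no filter beyond 1 count and in 1 fit of all 24 libraries, and to 0 to 1 with a library left out. In heterozygous cells leaving out a library gave 0 to 1 for the same interval (T without line 3 at day 2). From day 2.5 to 3 in heterozygous cells the count went from 3 to 5 (Mixl1 and T added) with the line as a replicate block, and to 3 to 5 with a library left out. The block changed no other call than those given with T, Mixl1 and Mesp2 above. It pairs days of a line. Heterozygous and wild-type lines share only a number (correlations of deviations from -0.144 to 0.189 over 12 pairs), and there the block gave 0 calls of these genes on each day.

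Of 848 alternatives to the 55 values with a test, 783 kept direction and side of the threshold, 11 lost and 16 gained the call and 38 changed sign, with 0 sign changes among the 14 values called. Every sign change was in a difference between genotypes or an interaction that did not pass. Under other models Mesp2 in the day 2 interaction was -0.29 (voom), Tbx6 in the day 2.5 interaction 0.0159 with library totals, 0.0227 with no filter and 0.0426 with the replicate block, Eomes between genotypes at day 2 0.000619 in 1 fit of all libraries, and Mixl1 between genotypes at day 3 -0.26 (voom) and -0.14 with the block. The following are the lowest and highest log2 values with 1 library left out. In the day 2 interaction Mesp2 went from -0.56 to 0.86. In the day 2.5 interaction T went from -2.01 to 0.39, Tbx6 went from -0.46 to 0.53 and Eomes went from -0.21 to 0.0468. In the day 3 interaction T went from -0.20 to 0.46 and Eomes went from -0.24 to 0.13. Between genotypes at day 0 T went from -1.15 to 0.0182 and Mesp2 went from -0.29 to 1.13. Between genotypes at day 2 T went from -0.22 to 2.25 and Eomes went from -0.14 to 0.12. Between genotypes at day 2.5 T went from -0.0289 to 0.61. Between genotypes at day 3 Msgn1 went from -0.96 to 0.22, Mixl1 went from -0.78 to 0.44, Eomes went from -0.33 to 0.0649 and Mesp2 went from -0.28 to 1.60.

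Over all genes the other tools and filters gave 0 to 369, 3 to 363, 0 to 18 and 1 to 116 calls between genotypes on days 0, 2, 2.5 and 3, and 0 to 59, 1 to 226, 0 to 3 and 0 to 110 with a library left out, where 0, 76, 0 and 1 are reported. They gave up to 58, 33 and 23 calls for the 3 interactions, where 0 are reported. From day 2.5 to 3 in wild-type cells they gave 2923 to 4718 calls, and 1381 to 2841 with a library left out, where 3003 are reported. Depth limits Gsc, Mesp1 and Mesp2 throughout and Tbx6 and Msgn1 before day 3, all at 34 counts or fewer per library.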
